A study of Mus musculus with 8 samples.

Results

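Myc, Mycn and Mycl1, their partner Max, and the Ras genes Nras and Hras1 were followed in cultured mouse pro-B cells after transduction of let-7b or of Lin28b. The members were all probes for mouse transcripts whose gene name in the scanner files is 1 of these 6 symbols, of which Mycl1 and Hras1 are older names of Mycl and Hras. The rule found 10 of 39429 probes on the array, 3 each for Nras and Hras1 and 1 each for Myc, Mycn, Mycl1 and Max. It used gene names only and no measured value.

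The arrays held RNA of fetal liver (FL) pro-B cells carrying a let-7b retrovirus, FL pro-B cells carrying the empty MSCV vector, adult bone marrow (BM) pro-B cells carrying a Lin28b retrovirus, and BM pro-B cells carrying the empty pMIG vector, with 2 arrays per group. Per the labels, all donors were BALB/c mice null for Rag1, the recombinase gene without which B cells do not pass the pro-B stage. A BM sort pooled 2 mice, an FL sort pooled the embryos of a litter (8 on average) at gestation day 16, and the cells grew on OP9 stroma, a mouse bone marrow stromal line, with the cytokine IL-7. The virus or its empty vector went into 12 of 24 wells each on the next day, and cells positive for GFP were sorted 4 days later, so the cells had been in culture with stroma and had been selected for transduction. The retroviral promoters and the transgene dose are not described in the labels.

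MYC proteins are basic helix-loop-helix leucine zipper transcription factors that bind DNA at the E-box as dimers with MAX, and they raise genes of growth, ribosome production and metabolism. RAS proteins are small GTPases that carry signals from receptors at the membrane to the RAF, MEK and ERK kinases and to PI3 kinase. Exchange factors (GEFs) load them with GTP and activating proteins (GAPs) make them hydrolyse it. The let-7 microRNAs pair with messenger RNAs through their seed, and Myc, Mycn and Ras genes are among the targets described for them in other cells. LIN28B binds let-7 precursors and blocks their maturation, and it is a protein of fetal and stem cells.

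The transduced let-7b and its relatives share the seed through which they recognise messenger RNAs, shown in capitals (bases 2 to 8) in the RefSeq mature sequences (GRCm38.p6). let-7a and miR-98, set beside let-7b, carry the same seed and also share bases outside it.
let-7b-5p: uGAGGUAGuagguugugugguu
let-7a-5p: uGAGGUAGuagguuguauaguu
miR-98-5p: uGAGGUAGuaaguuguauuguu
The RefSeq table holds 9 let-7 and miR-98 names in 11 entries, and all 11 entries carry the seed GAGGUAG. Mature let-7 was not measured on these arrays, so the gain of let-7b in the FL cells was not checked here.

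Myc, which was called between the tissues, and Hras1, which was not, were read by these probes, shown because each is the gene's only probe well above background on all 8 arrays. They are 60 bases long and are placed by the array design on mouse build mm9.
Myc, A_52_P108346 (chr15:61821417-61821476, plus strand): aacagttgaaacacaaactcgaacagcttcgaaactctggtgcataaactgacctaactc
Hras1, A_51_P357664 (chr7:148377296-148377355, minus strand): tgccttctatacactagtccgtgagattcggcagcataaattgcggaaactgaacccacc
The other probes lay at chr12:12943193-12943252 (minus strand) for Mycn, chr4:122679535-122679594 (plus) for Mycl1 and chr12:78038272-78038331 (minus) for Max. The Nras probes lay at chr3:102870149-102870208 (A_51_P396273), chr3:102871322-102871381 (A_52_P566348) and chr3:102868451-102868510 (A_52_P649296), all on the plus strand. The other Hras1 probes lay at chr7:148376043-148376102 (A_55_P1979536) and chr7:148375031-148375090 (A_66_P139159), on the minus strand. The exon under each probe was not analysed here, and none of the 10 probes holds CTACCTC, the 7 letters complementary to the seed.

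The E-box bound by MYC and MAX was looked for as CACGTG in RefSeq promoters (GRCm38.p6, 250 bases before to 50 after the start), and it reads the same on both strands. RefSeq promoters were found for 5 of the 6 genes, all but Myc. Nras, of which 2 of 3 probes were called lower in FL than in BM, and Max, the partner of MYC, each held 1 such motif, shown in capitals within 125 bases written along the gene's strand.
Nras (chr3:103058165-103058289, plus strand): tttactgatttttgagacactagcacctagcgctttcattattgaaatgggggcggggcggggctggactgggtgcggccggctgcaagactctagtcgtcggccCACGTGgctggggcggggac
Max (chr12:76962244-76962368, minus strand): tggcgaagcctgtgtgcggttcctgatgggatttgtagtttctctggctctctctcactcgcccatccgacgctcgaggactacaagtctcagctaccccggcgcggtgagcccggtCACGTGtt
The motif began 15 bases before the start of Nras and 3 bases before that of Max. Of 32851 promoters in the table, 2349 (7.15%) held it, and a match is not evidence of binding.

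Levels are log2 of the processed signal relative to the array's 75th percentile, so a step of 1 is a factor of 2 in signal, and levels of different probes cannot be set against each other. The 75th percentile of the signal was 271 to 488 on the FL arrays and 1920 to 2230 on the BM arrays, and 56.5 to 68.6% of spots on the FL arrays and 64.4 to 68% on the BM arrays were well above background. The BM arrays shared slide 1, while the let-7 and empty-vector arrays of FL replicate 1 shared slide 2 and those of replicate 2 slide 3. The median SD of a probe between replicates was 0.22 for let-7, 0.28 for FL empty vector, 0.07 for Lin28b and 0.08 for BM empty vector. A Lin28b probe (A_52_P532355) lay at 0.21 ± 0.19 (SD, n = 2) on the Lin28b arrays and was not well above background on the BM empty-vector arrays, at least 137-fold higher (limma adjusted p = 0.00174). Another Lin28b probe (A_55_P1970905) lay at -5.81 with Lin28b and -6.45 with BM empty vector. It differed by 0.64 ± 0.28 (limma's standard error), without a call. Markers of pro-B cells (Cd79a, Pax5, Ebf1, Il7r and others) had a tested probe for 11 of 12, and all 11 were well above background on every array. Their summed linear level (the 75th percentile is 1) was 1040 to 1080 with let-7, 906 to 1200 with FL empty vector, 392 to 429 with Lin28b and 446 to 472 with BM empty vector. The markers did not all follow these sums. Between the empty-vector groups 7 of 11 were higher in FL and 4 lower, among them Pax5 (-0.23) and Ebf1 (-0.57). Of the 11, 6 were called higher and 1 lower, beside 40.1% and 19.5% of all genes. Under quantile scaling 4 were called higher and 3 lower, with a median of -0.14 (0.83 as reported).

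Myc was well above background on all 8 arrays. Its level was 2.83 and 2.21 with let-7 and 3 and 2.58 with FL empty vector, and 3.78 and 3.76 with Lin28b and 3.77 and 3.74 with BM empty vector. All 4 FL arrays lay below all 4 BM arrays, while within each tissue the transduced and the empty-vector arrays overlapped. In group means the order was Lin28b (3.77), BM empty vector (3.75), FL empty vector (2.79) and let-7 (2.52), and the neighbours within a tissue did not differ beyond their spread.

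Mycn, the family member best known from neural and early progenitor cells, was also well above background on all 8 arrays. It lay at -0.05 and -0.67 with let-7 and at -0.87 and -1.25 with FL empty vector, and at -1.13 and -0.91 with Lin28b and -0.80 and -0.87 with BM empty vector. Both let-7 arrays were above every other array, and the FL empty-vector arrays, with the lowest value of all, overlapped with the BM arrays. The spread between replicates was 0.44 (SD) with let-7 and 0.27 with FL empty vector, against 0.16 with Lin28b and 0.05 with BM empty vector.

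Mycl1, the third MYC gene, was not well above background on any of the 8 arrays. Its measured level ran from -7.63 to -6.77 with let-7 and from -6.77 to -6.62 with FL empty vector, and from -7.69 to -7.40 with Lin28b and from -8.69 to -8.12 with BM empty vector. The lowest level well above background was between -5.65 and -4.49 on the FL arrays and between -7.14 and -6.87 on the BM arrays, so these values are bounds and Mycl1 was not tested.

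Max, the obligate partner of the MYC proteins, had the narrowest range of the tested members. It stood at 3.14 on both let-7 arrays and at 3.03 and 3.1 with FL empty vector, and at 3.1 and 3.12 with Lin28b and 3.29 and 3.39 with BM empty vector. The BM empty-vector arrays were the highest of the 8, and the other 6 arrays lay between 3.03 and 3.14.

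Nras was read by 3 probes, all well above background on all 8 arrays. The probe A_51_P396273 gave 0.65 and 0.86 with let-7 and 0.87 and 0.62 with FL empty vector, and 1.52 and 1.64 with Lin28b and 1.55 and 1.39 with BM empty vector. A_52_P566348 gave 0.93 and 0.75 with let-7 and 1.21 and 0.85 with FL empty vector, and 1.94 and 1.97 with Lin28b and 1.86 and 1.55 with BM empty vector. On both of these probes all FL arrays lay below all BM arrays. The probe A_52_P649296 gave 0.11 and 0.76 with let-7 and 0.65 and 1.18 with FL empty vector, and 0.86 and 0.90 with Lin28b and 0.79 and 0.64 with BM empty vector. On A_52_P649296 the tissues overlapped and the FL replicates differed by more than 0.5, so the probes of Nras disagree on a difference between tissues.

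Hras1 was read by A_51_P357664 on all 8 arrays, with 1.88 and 2.24 for let-7 and 1.82 and 2.18 for FL empty vector, and 1.51 and 1.56 for Lin28b and 1.5 and 1.54 for BM empty vector. The 4 FL arrays lay above the 4 BM arrays, and replicate 2, on slide 3, was the higher in both FL groups. A_66_P139159 was well above background on 7 of 8 arrays and gave -4.57 and -5.07 with let-7 and -4.97 and -4.33 with FL empty vector, and -4.95 and -4.90 with Lin28b and -5.10 and -5.37 with BM empty vector. A_55_P1979536 was well above background on 1 of 8 arrays (Lin28b replicate 2, -6.80) and was not tested. A filter on low values (well above background on at least 2 of 8 arrays) thus passed 8 of the 10 probes, which cover 5 of the 6 genes.

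**Figure D1:**
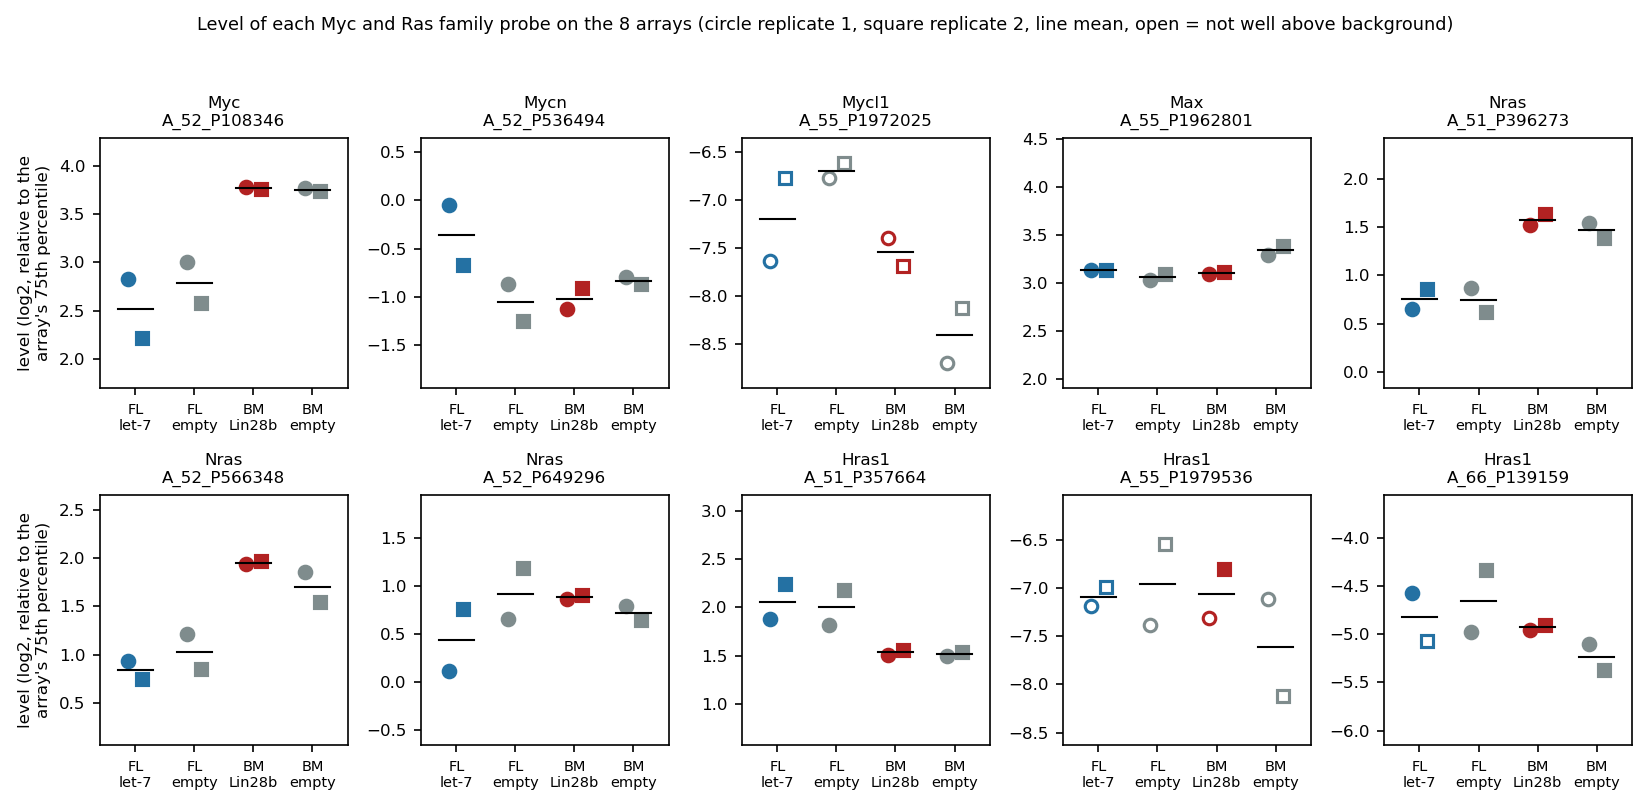
Level of each of the 10 probes (vertical axis, log2 relative to the array's 75th percentile) in the 4 groups; each point is an array (circle replicate 1, square replicate 2), the line is the group mean, and open points were not well above background. Myc and 2 of the 3 Nras probes are lower on all 4 FL arrays than on all 4 BM arrays, the Hras1 probe A_51_P357664 is higher on them, and Mycn is highest on the let-7 arrays.

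The comparison of Lin28b with empty vector in BM asks whether adult cells given Lin28b, which lowers mature let-7, changed these genes. No member was called. Myc differed by 0.01 ± 0.25 on the log2 scale (limma's standard error, n = 2 per group), with a 95% interval of -0.60 to 0.63. Each standard error and interval here uses 1 spread per probe shared by all 8 arrays, FL arrays included. The SD of Myc was 0.01 and 0.02 in the Lin28b and BM empty-vector groups, against 0.44 with let-7 and 0.3 with FL empty vector. With only the 4 BM arrays its standard error was 0.06, again without a call. Of the 8 tested probes 0 passed limma's adjusted p of 0.05 and 0 had an unadjusted p below it. Among all 28410 probes tested, 1 was called, 0.00352%, and it is the Lin28b probe A_52_P532355. An unadjusted p below 0.05 was found for 3.46% of all probes.

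The differences of the 8 probes ran from -0.23 to 0.31, all with an adjusted p of 1. Max differed by -0.23 ± 0.12 (95% interval -0.52 to 0.06), with both Lin28b arrays below both empty-vector arrays. Mycn differed by -0.18 ± 0.25 (-0.81 to 0.45), also without overlap. The Nras probes differed by 0.11 ± 0.16, 0.25 ± 0.19 and 0.16 ± 0.28 in the order given above, and Hras1 by 0.01 ± 0.19 (A_51_P357664) and 0.31 ± 0.28 (A_66_P139159). Among the 8, 3 had both Lin28b arrays above both empty-vector arrays and 2 had both below. Over all probes tested these shares were 17.8% and 33.3%. The missing calls do not show that the levels were equal.

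The comparison of let-7 with empty vector in FL asks whether a gain of let-7b lowered these genes. No member was called, and the value closest to a call was a higher, not a lower, level of Mycn. Mycn differed by 0.70 ± 0.25 (log2, 95% interval 0.07 to 1.33, 1.62-fold; limma adjusted p = 0.484), by 0.82 within slide 2 and by 0.58 within slide 3. It was 0.39 without let-7 replicate 1 and 1.01 without let-7 replicate 2, and it was called in none of the fits that left out 1 array. The interval of Mycn uses the spread shared by all 8 arrays, and with only the 4 FL arrays its standard error was 0.33. Myc differed by -0.28 ± 0.25 (-0.89 to 0.34, adjusted p = 0.794), by -0.17 within slide 2 and by -0.38 within slide 3. Of the 8 probes 0 were called and 1 had an unadjusted p below 0.05, against 7 called (0.0246%) and 9.64% with an unadjusted p below 0.05 among the 28410 probes.

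Nras differed by 0.01 ± 0.16 on A_51_P396273, where the slides gave -0.22 and 0.25, so the sign changed from slide to slide. On A_52_P566348 it differed by -0.19 ± 0.19 (slides -0.28 and -0.10), and on A_52_P649296 by -0.48 ± 0.28 (-1.16 to 0.20, adjusted p = 0.653, slides -0.54 and -0.43). Max differed by 0.08 ± 0.12, and Hras1 on A_51_P357664 by 0.06 ± 0.19, with 0.06 on each slide. A_66_P139159 of Hras1 differed by -0.17 ± 0.28, with 0.41 on slide 2 and -0.74 on slide 3. Groups that do not overlap were found for Mycn and Max, both higher with let-7, and for 0 probes lower with let-7. Over all probes the shares were 11.8% higher and 18.2% lower.

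The empty-vector groups of FL and BM were compared to describe the fetal and the adult state. Myc was lower in FL by 0.96 ± 0.25 on the log2 scale (95% interval of the difference -1.58 to -0.35, 1.95-fold lower, limma adjusted p = 0.0194). Nras was lower in FL on A_51_P396273, with a difference of -0.73 ± 0.16 (-1.12 to -0.33, 1.66-fold, adjusted p = 0.0109), and on A_52_P566348, with -0.68 ± 0.19 (-1.14 to -0.22, 1.60-fold, adjusted p = 0.0239). These 3 of 8 probes were called lower and 0 were called higher. Of all 28410 probes 19.8% were called lower and 39.1% higher, so calls are common in this comparison.

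The third Nras probe, A_52_P649296, differed by 0.20 ± 0.28 (-0.48 to 0.89, adjusted p = 0.549), Mycn by -0.22 ± 0.25 (adjusted p = 0.482) and Max by -0.28 ± 0.12 (-0.57 to 0.01, adjusted p = 0.0879). Hras1 differed by 0.48 ± 0.19 on A_51_P357664 (0.01 to 0.95, adjusted p = 0.0725) and by 0.59 ± 0.28 on A_66_P139159 (adjusted p = 0.117). FL arrays lay above BM arrays without overlap for 2 of the 8 probes and below for 4, against 53.7% and 28.9% of all probes. The median difference of all probes was 0.47, and relative to it Myc lay at -1.43, Nras at -1.20, -1.15 and -0.27, Mycn at -0.69, Max at -0.75 and Hras1 at 0.01 and 0.12. Quantile scaling, which moved that median to -0.02 and the share of all calls that were higher to 46.1% (66.4% as reported), left Myc at -1.11 (adjusted p = 0.0156), called Max lower too (-0.43, adjusted p = 0.0244) and turned A_66_P139159 of Hras1 to -0.49.

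The calls rest on few arrays. Without BM empty-vector replicate 1, 0 of the 8 probes were called, and the adjusted p was 0.0853 for Myc, 0.0725 for A_51_P396273 and 0.133 for A_52_P566348. Without BM empty-vector replicate 2, Myc had an adjusted p of 0.0796, and without either Lin28b array, which enter the shared spread, A_52_P566348 had 0.0534. Without FL empty-vector replicate 2, only A_51_P396273 of Nras was called, and Myc differed by -0.75 (adjusted p = 0.0731). Without FL empty-vector replicate 1, 5 probes were called, with both tested Hras1 probes higher in FL (0.66 and 0.91, adjusted p = 0.0355 and 0.0361). Under normexp background correction Myc (-1.2, adjusted p = 0.0727) and A_52_P566348 (-0.55, adjusted p = 0.19) were not called. The tissues also differ in age, vector, slide and scan, which cannot be told apart here, and lower RNA per cell and fewer cells of a type cannot be told apart in RNA from many cells.

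**Figure D2:**
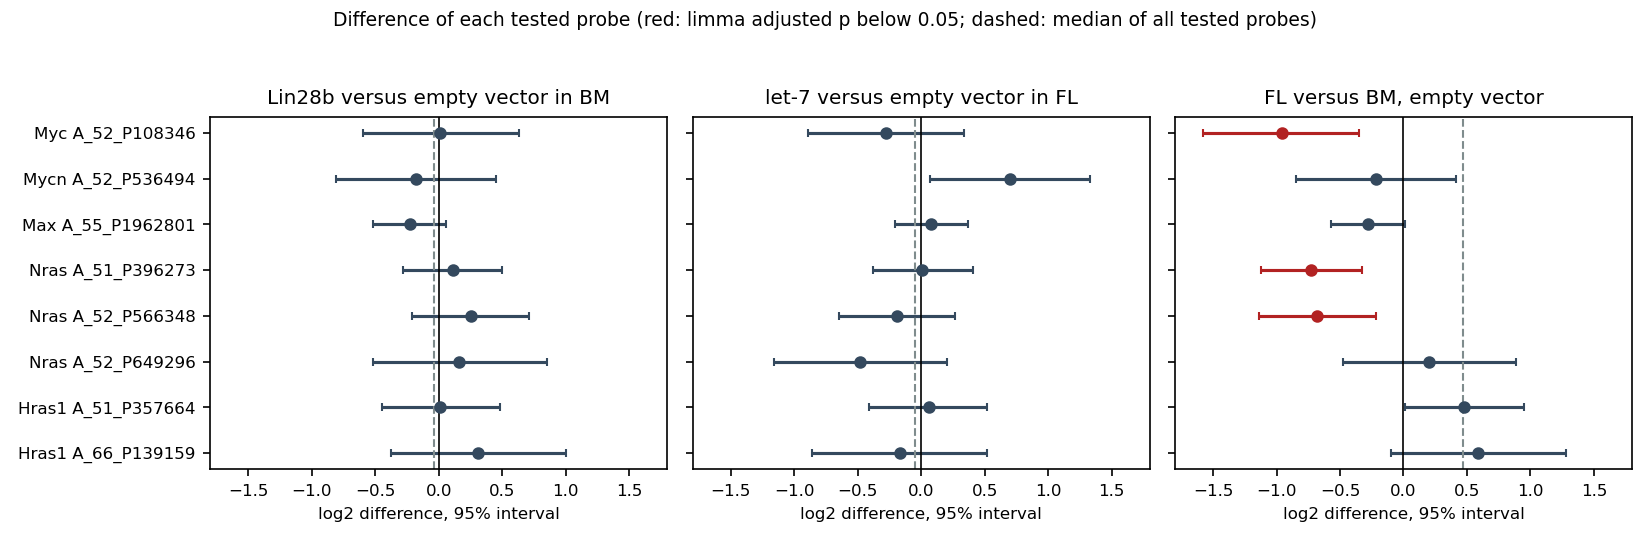
Log2 difference of each of the 8 tested probes with its 95% interval (horizontal axis) in the 3 comparisons; red marks a limma adjusted p below 0.05, and the dashed line is the median of all tested probes. Red intervals appear in FL against BM alone, for Myc (-0.96) and 2 Nras probes (-0.73 and -0.68). The let-7 interval of Mycn (0.07 to 1.33) lies above 0 without a call. All intervals use the spread shared by the 8 arrays, and with only the 4 FL arrays the standard error of Mycn was 0.33 in place of 0.25.

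**Figure D3:**
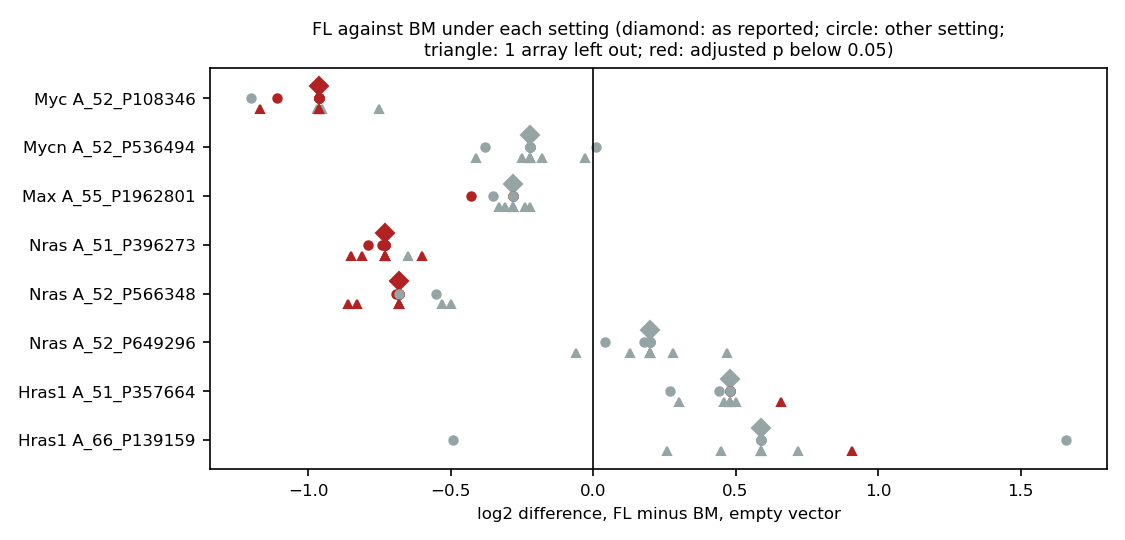
Log2 difference of FL minus BM empty vector (horizontal axis) for each tested probe, as reported (diamond), under the other settings (circles) and with 1 array left out (triangles); red marks an adjusted p below 0.05. Myc stays between -1.20 and -0.75 and A_51_P396273 of Nras between -0.85 and -0.60, while A_66_P139159 of Hras1 runs from -0.49 to 1.66.

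Markers of other cell types differed between the groups as well. Of 16 stromal markers (collagens, Sparc, Fstl1, Vcam1 and others) 14 were tested, and their summed linear level was 14.8 to 19.4 with let-7 against 8.56 to 10.5 with FL empty vector, and 34.5 to 53.0 with Lin28b against 20.4 to 24.2 with BM empty vector. Their median difference was 0.92 with let-7 and 1.07 with Lin28b, with 0 of 14 called in both comparisons (unadjusted p below 0.05 for 5 with let-7 and 9 with Lin28b). In FL against BM empty vector 2 of 14 were called higher and 7 lower. Over all genes 40.1% were called higher and 19.5% lower in this comparison. Dcn, a matrix proteoglycan, was not well above background in the Lin28b and BM empty-vector groups, nor was Col5a2, a collagen, in the BM empty-vector group. Myeloid markers (8 of 10 tested) summed to 24.8 to 56.4 with let-7, 28.8 to 61.2 with FL empty vector, 7.63 to 9.89 with Lin28b and 9.13 to 9.57 with BM empty vector, and Lyz2 was not well above background in either FL group. S100a8 and S100a9, calcium-binding proteins of neutrophils, were not well above background with BM empty vector, and with Lin28b they were at least 8.13-fold and at least 29.1-fold higher without a call (limma adjusted p = 1 for both). Between the empty-vector groups 4 of 8 myeloid, 3 of 5 erythroid and 3 of 5 T cell markers were called higher in FL, and 1, 0 and 1 were called lower. These counts too stand beside 40.1% higher and 19.5% lower of all genes, so higher calls are common. Quantile scaling gave 3 higher and 1 lower for myeloid, 1 and 1 for erythroid, and 3 and 1 for T cell markers. It gave 0 and 7 for stromal and 0 and 2 for hepatocyte markers. Hepatocyte markers were tested for 2 of 6, with summed levels of 0.131 to 0.182 in FL empty vector against 0.228 to 0.234 in BM empty vector, and erythroid markers reached at most 0.398 on any array. The part of such cells in the differences of Myc, Mycn and the Ras genes was not tested.

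The other genes of the pathways were read from 9 lists, by the brightest probe of each gene and with p adjusted over all 28410 probes. With Lin28b 0 genes were called in any list, and the smallest adjusted p was 1 in each. An unadjusted p below 0.05 was found for 1 of 22 RAS effectors, 6 of 16 genes of ERK output and feedback, and 0 genes of the other 7 lists. The medians lay between -0.11 (GAPs) and 0.05 (ERK output), beside -0.04 for all 22928 genes. Rgl3, a RAS effector that activates RAL GTPases, differed by 1.11 ± 0.38, Ccnd1 (cyclin D1) by 1.19 ± 0.40, Egr1 by 0.45 ± 0.15 and Fos by -0.73 ± 0.22, all with an adjusted p of 1. Egr1 and Fos are immediate early genes that ERK signalling induces, and here their values point opposite ways.

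With let-7 0 genes of the 9 lists were called as well, while 0.0218% of all genes were called higher and 0.00872% lower. The smallest adjusted p were those of Egr1 and Rasa4. Egr1 lay at -1 with let-7 against -2.30 with FL empty vector, a difference of 1.3 ± 0.15 (adjusted p = 0.0854, slides 1.45 and 1.14). Rasa4, a GAP for RAS that is recruited by calcium, lay at 1.28 with let-7 against -0.20 with FL empty vector, a difference of 1.48 ± 0.17 (adjusted p = 0.0876, 1.48 on each slide). Over the settings tried the adjusted p of Egr1 ran from 0.0265 to 1 and that of Rasa4 from 0.0178 to 1. Egr1 was called under 4 settings (without FL empty-vector replicate 1 the adjusted p was 0.0474) and Rasa4 under 3 (without that array 0.0417).

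Further values with let-7 came without a call. Rasgrp1, a diacylglycerol-regulated exchange factor for RAS in lymphocytes, differed by -1.16 ± 0.27 (adjusted p = 0.284), Rasgrp4 by -0.61 ± 0.18 (0.375) and the GAP Nf1 (neurofibromin) by -0.60 ± 0.14 (0.299). Mxd3, which binds MAX in place of MYC, differed by 0.74 ± 0.18 (0.299), and Polr1b, a subunit of RNA polymerase I counted among MYC targets, by -0.48 ± 0.15 (0.398). Fos was well above background on 1 let-7 array and on no FL empty-vector array, at least 1.16-fold higher with let-7 (adjusted p = 0.209). Unadjusted p values below 0.05 were found for 1 of 8 genes of the MAX network, 2 of 33 MYC targets, 2 of 10 RAS activators, 4 of 10 GAPs, 1 of 22 effectors and 6 of 16 genes of ERK output, and for 0 MYC cofactors, other RAS GTPases and lipid-processing genes. The list medians ran from -0.13 (RAS activators) to 0.19 (GAPs), beside -0.06 for all genes.

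Between FL and BM empty vector, MYC target genes had 17 of 33 called lower and 3 called higher, with a median of -0.46. Over all genes 19.5% were called lower and 40.1% higher, with a median of 0.52. Quantile scaling gave 21 lower and 1 higher, with a median of -0.83 beside -0.02 for all probes. Among the lower ones were Gnl3 (nucleostemin) at -2.25 ± 0.17 (limma adjusted p = 0.000631) and Rrs1, which acts in assembly of the large ribosomal subunit, at -1.54 ± 0.12 (0.000658). Ppat, an enzyme of purine synthesis, differed by -1.71 ± 0.15 (0.00083). Ldha, lactate dehydrogenase A, went the other way at 2.07 ± 0.15 (0.00062), but under quantile scaling it was at 0.29 and not called. Leaving out BM empty-vector replicate 1 gave the fewest lower calls among the settings, 12 of 33.

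Of the MAX network, 3 of 8 tested genes were called higher in FL and 1 lower, beside 40.1% and 19.5% of all genes. The list median was 0.43, beside 0.52 for all genes. Mnt, a repressor that pairs with MAX, stood at 3.26 in FL against 2.36 in BM, a difference of 0.91 ± 0.16 (adjusted p = 0.00478). Mxd4, a MAX-binding repressor, differed by 1.10 ± 0.27 (0.0166) and Mlxipl, a glucose-responsive factor that pairs with MLX, by 1.03 ± 0.22 (0.00969; 0.24 and not called under quantile scaling). Mga, which pairs with MAX in a repressive complex, was lower by 1.69 (difference -1.69 ± 0.48, 0.0259), a call lost without BM empty-vector replicate 1, without BM empty-vector replicate 2 and without FL empty-vector replicate 2. Without BM empty-vector replicate 1 the calls of Mxd4 and Mlxipl were lost too (adjusted p = 0.0923 and 0.0619). Mxi1 was not well above background on enough arrays to be tested.

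MYC cofactors and regulators of MYC stability had 3 of 15 called lower and 0 higher, beside 19.5% and 40.1% of all genes. Their median was 0.05 and became -0.12 under quantile scaling. Skp2, an F-box protein of the ligase that ubiquitinates MYC, differed by -0.89 ± 0.13 (adjusted p = 0.00299), and Wdr5, a chromatin cofactor of MYC, by -0.62 ± 0.11 (0.00559). Kat5, an acetyltransferase, differed by 0.38 ± 0.17 without a call (0.0945).

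Of the other RAS GTPases, Rras lay at -0.11 in FL against -1.38 in BM, a difference of 1.27 ± 0.14 (adjusted p = 0.00129). Its call held in every setting run, while Rras2 (0.08 ± 0.14) and Mras (-0.66 ± 0.51) were not called. Exchange factors and adaptors had 4 of 10 genes called higher and 1 lower (median 0.24), near the 40.1% higher and 19.5% lower of all genes. The lower calls became 0 under normexp correction, with the replicate block and with only the 4 arrays compared, and 2 under quantile scaling. The genes called higher were Rasgrp4 at 3.63 ± 0.18 (0.000392), Rasgrf2 at 1.92 ± 0.25 (0.00199), Rasgrp2 at 1.08 ± 0.20 (0.0066) and Rasgrp1 at 1.07 ± 0.27 (0.0182). The call of Rasgrp1 was lost without BM empty-vector replicate 2 and without FL empty-vector replicate 2.

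RAS GAPs had 4 of 10 called higher and 4 lower, beside 40.1% and 19.5% of all genes. Their median was 0.03, beside 0.52 for all genes (-0.31 under quantile scaling, with 2 higher and 4 lower). Rasa2 lay at -3.77 in FL against -0.99 in BM, a difference of -2.78 ± 0.12 (adjusted p = 0.000336), and Rasa1 and Rasa4 were lower too (-0.98 ± 0.12 and -0.98 ± 0.17, 0.00181 and 0.0049). Nf1 lay at 0.59 in FL against -1.62 in BM, a difference of 2.20 ± 0.14 (0.00057). All of the lower calls in this list were lost under normexp background correction. The higher calls numbered 1 without BM empty-vector replicate 1.

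Genes of RAS lipid processing, which anchor RAS proteins in membranes, had 2 of 9 called higher and 2 lower. Over all genes the shares were 40.1% and 19.5%. The list median was 0.22 (-0.01 under quantile scaling). Icmt, the methyltransferase that acts on farnesylated proteins, differed by 2.25 ± 0.40 (adjusted p = 0.0054) and the protease Rce1 by 0.57 ± 0.13 (0.0115). Lypla1, which removes palmitate, differed by -1.52 ± 0.24 (0.00362), and Golga7, a subunit of the RAS palmitoyltransferase, by -0.97 ± 0.22 (0.0131). The calls of Rce1 and Golga7 were lost when either BM empty-vector array was left out.

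RAS effectors had 7 of 22 called higher and 6 lower, beside 40.1% and 19.5% of all genes. Their median was 0.06 (-0.11 under quantile scaling). Pik3cd, the PI3 kinase catalytic subunit typical of leukocytes, lay at 5.65 in FL against 3.19 in BM, a difference of 2.45 ± 0.19 (adjusted p = 0.00065). Rgl1, an effector that activates RAL, differed by 1.59 ± 0.13 (0.000699) and the scaffold Ksr1 by 1.61 ± 0.18 (0.00125). Pik3cb was not well above background in FL and at least 1.24-fold lower (0.00114), but it read 1.17 under normexp correction, without a call. Genes of ERK output and feedback had 7 of 16 called lower and 3 higher, beside 19.5% and 40.1% of all genes. Their median was -0.24 (11 lower and 3 higher under quantile scaling, median -0.77). Under normexp correction only 2 of the 16 were called lower.

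Fos was not well above background in FL and at least 6.37-fold lower than in BM (adjusted p = 0.000525), a call lost under normexp correction, where the difference was -0.36. Egr1 differed by -1.29 ± 0.15 (0.00137) and Ccnd1 by -2.55 ± 0.40 (0.00336). Spry2, a feedback inhibitor of RAS and ERK signalling, lay at -3.00 in FL against -5.06 in BM, a difference of 2.06 ± 0.13 (0.000525). Comparisons that share a control group are not independent. The let-7 and the tissue differences use the same FL empty-vector arrays, whose spread moves them in opposite directions. Signs were opposite for Egr1, Rasa4, Rasgrp1 and Nf1 (tissue -1.29, -0.98, 1.07 and 2.20, let-7 1.3, 1.48, -1.16 and -0.60). They were also opposite for Rasgrp4 (3.63 and -0.61) and for Fos. Mxd3 (0.44 and 0.74) and Polr1b (-0.42 and -0.48) had the same sign in both. A link between the comparisons was not tested.

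**Figure D4:**
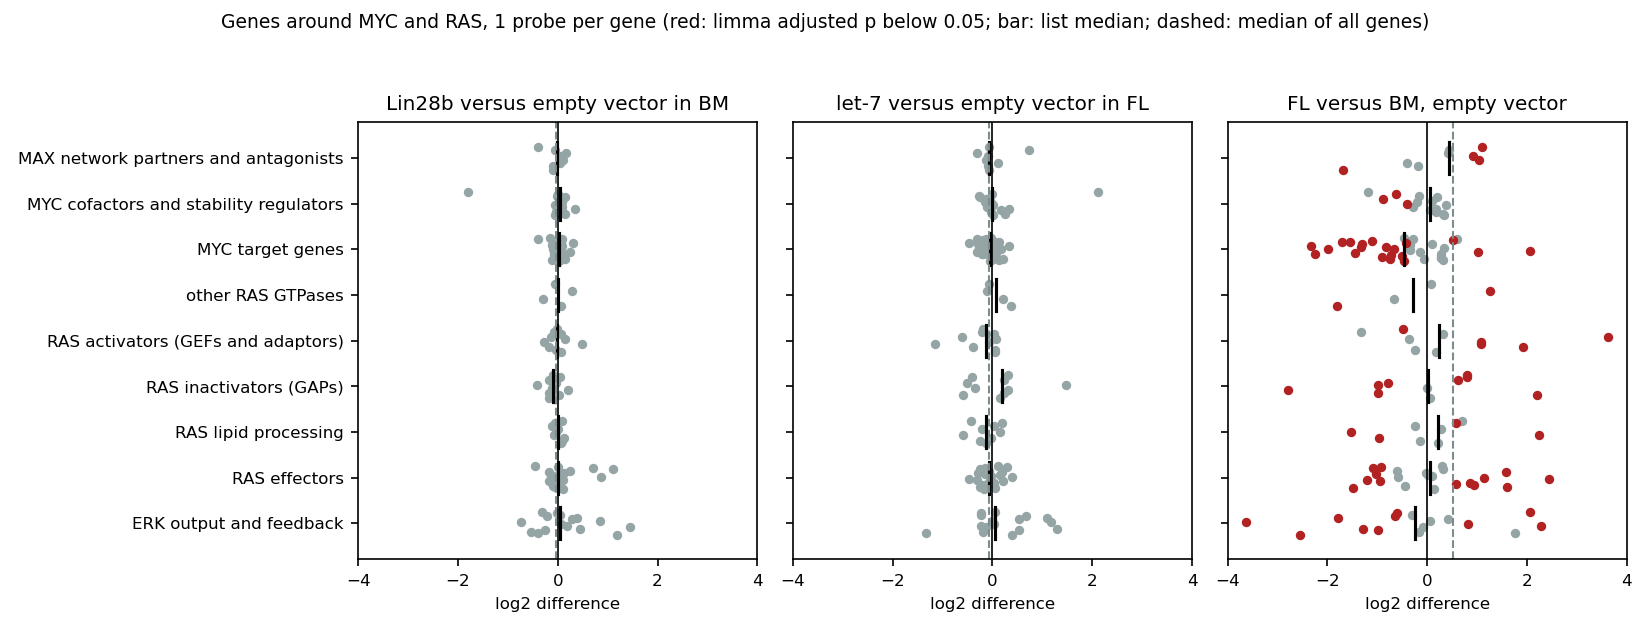
Log2 difference of each gene (horizontal axis, 1 probe per gene) in 9 lists around MYC and RAS, for the 3 comparisons; red marks a limma adjusted p below 0.05, black bars are list medians and the dashed line is the median of all genes. No gene is red with Lin28b or let-7, and between FL and BM the MYC targets have the lowest median (-0.46), below the median of all genes (0.52). Under quantile scaling their median was -0.83, beside -0.77 for ERK output and -0.02 for all probes.

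Genes with the most similar profile were looked up for the brightest probe of each member by the root mean square distance of the 8 levels, each minus the probe's own mean, among 13015 genes well above background on all 8 arrays. For Myc they were Map2k3os (distance 0.0659), Supt20 (0.0803) and Zfp317 (0.0917), where the median gene lay at 0.743. Max had the nearest in Msl2 (0.041), Fam216a (0.0547) and Ywhaq (0.0662), beside a median of 0.453. For Nras, on A_52_P566348, Nfs1 (0.0816), Tgfbr1 (0.0885) and Irak1 (0.0912) came closest, beside 0.647. Hras1 had Clasp1 (0.0383), Lage3 (0.0386) and Vps52 (0.0457), beside 0.488. Mycn had no gene closer than Ethe1 (0.133), followed by Znfx1 (0.148) and Pou6f1 (0.154), beside 0.558. All points share the 8 arrays, so a small distance largely reflects the same difference between tissues and between FL replicates.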

How the data were processed

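RNA of 8 samples was hybridised to Agilent arrays of 1 colour (Cy3). The deposited scanner files hold spot intensity values, corrected for background by Agilent Feature Extraction 9.5.3.1 per the file headers. Also deposited was the authors' matrix of log2 values, with a normalization not given in the sources used here. Its column medians were 7.22 in BM and 6.16 in FL, so it was used within a tissue only, and its centring is unknown.

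Of 44397 spots, 1377 control spots were left out. The processed signal was taken as log2 minus the array's 75th percentile over 43020 spots. Copies of a probe were averaged, and 31 probes with an outlier flag and 10988 dim probes were left out, which kept 28410. A change against a group not well above background is a lower bound ("at least"), in which each dim array counts at its measured value or at its lowest level well above background, whichever is higher.

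limma 3.58.1 (R 4.3.3, version 1.17.8 of data.table; Python 3.11.15 for plots) fitted 1 mean per group over all 8 arrays (lmFit, eBayes), and p was adjusted over all 28410 probes by Benjamini-Hochberg and called below 0.05, two-sided. With 2 arrays against 2, the smallest p of an exact permutation test is 0.333, so calls rest on the spread limma shares between probes (prior degrees of freedom 1.72), and the number of arrays limits the precision. Since the labels do not tie each replicate to a sort, p-values measure the spread between these arrays, which may be technical. The fit was tested on simulated data.

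The members and the gene lists were chosen with earlier results of these data known. Genes were named through RefSeq accessions (19857 probes), symbols (1960) or synonyms (563) of GRCm38.p6, and 6030 kept the name in the file. The text names every member probe, up to 4 genes per list by smallest adjusted p in a comparison, and the 3 genes closest in profile to each member, and some that this allows are not reported here. Alternatives were normexp correction (offset 50), quantile scaling, other filters on dim probes, 1 probe per gene, the replicate number as a block, a trended and robust spread, only the 4 arrays compared, the authors' values, and leaving out each array. Samples with the same replicate number deviated together in FL, where the number is the slide (correlation 0.514 over probes), and not in BM (-0.0613) or between tissues (-0.0716).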

Additional observations from a re-analysis of the deposited data

How the results depend on the processing

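The counts of called members stayed at 0 for Lin28b and for let-7 under every setting run. For FL against BM the count of 3 became 1 under normexp correction and 5 with a trended and robust spread, and ran from 0 to 5 with 1 array left out. With the replicate block it stayed at 3 (pairing by number has 2 pairs only). Quantile scaling added a call of Max, and the filter for all 8 arrays added 1 of Hras1 A_51_P357664. With only the 4 arrays compared the call of Nras A_52_P566348 was lost. Over all probes, the 1 call with Lin28b became 0 under normexp correction, with 1 probe per gene and with the replicate block, 2 with a trended and robust spread and with only the 4 arrays compared, 4 under quantile scaling and with the authors' table, and 0 to 1 with 1 array left out. The 7 calls with let-7 became 0 under normexp correction, with no filter on dim probes, with the replicate block, with only the 4 arrays and with the authors' table, 70 where probes had to be well above background on all 8 arrays, 74 under quantile scaling, 89 with a trended and robust spread, and 0 to 625 with 1 array left out. The highest count, 368 higher and 257 lower, came without FL empty-vector replicate 1. The 16734 calls of FL against BM ran from 10932 to 17464 with 1 array left out. Differences near 0 changed sign. With Lin28b, Hras1 A_51_P357664 read 0.00 in the authors' table and -0.01 without Lin28b replicate 2 or BM empty-vector replicate 1. With let-7, normexp correction gave Max -0.32, Nras A_51_P396273 -0.14, Hras1 A_51_P357664 -0.28 and A_66_P139159 0.75, the authors' table gave Nras A_51_P396273 -0.04, and leaving out 1 FL array gave Myc -0.59 to 0.04, Nras A_51_P396273 -0.11 (also -0.09) to 0.14, Hras1 A_51_P357664 -0.13 to 0.24 (-0.13 without let-7 replicate 2 and without FL empty-vector replicate 1) and A_66_P139159 0.08 and 0.16. For FL against BM, Mycn read 0.01 under normexp correction, Nras A_52_P649296 -0.06 and Rras2 -0.04 without FL empty-vector replicate 2 (up to 0.47 and 0.2 without other arrays), Hras1 A_66_P139159 -0.49 under quantile scaling, and Mras 0.57 and Pik3cb 1.17 under normexp correction. The calls of Myc (adjusted p = 0.0727) and Nras A_52_P566348 (0.19) were lost under normexp correction, and that of this Nras probe also with only the 4 arrays (0.0773). Of genes named from the lists, Mnt, Wdr5, Rasa1, Rasa2, Rasa4, Rce1, Golga7, Egr1 and Fos lost their FL against BM calls under normexp correction. Max was called with a trended and robust spread (0.039), and Hras1 A_51_P357664 with that spread (0.0378) and with the stricter filter (0.048). The cause of these changes was not tested. List counts and genes named from lists were added as alternatives after the data were seen. MYC targets called lower in FL ran from 12 to 21 and those called higher from 1 to 5. The 75th percentile of the signal was 271 to 488 on FL arrays against 1920 to 2230 on BM arrays, and the limits this sets were not compared between the tissues.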
